A study of Mus musculus with 4 samples.

Results

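Alveolar type 2 (AT2) nuclei that carried at least 1 transcript of the chemokine gene Cxcl1 numbered 426 of 24494 deposited barcodes, 58 in the CKO library and 368 in the Control library. A barcode was kept when it had 1000 to 25000 unique molecular identifiers (UMIs, each standing for 1 captured RNA molecule), at least 300 genes and a mitochondrial share under 30%. Its UMIs of Sftpb, Sftpa1, Sftpd, Slc34a2, Lamp3, Abca3, Cxcl15 and Lpcat1 together had to make up at least 1% of its nuclear-encoded UMIs, with none from the leukocyte gene Ptprc. This gate held 2768 CKO and 2484 Control nuclei. Nuclei with a Cxcl1 UMI are called positive here and were set against the 2710 CKO and 2116 Control gated nuclei without one, always within a library. Because the Cxcl1 UMI chose the positive nuclei, their Cxcl1 values are a description, and the contrasts of other genes are values without a test.

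The study profiled nuclear RNA and open chromatin together (10x multiome) in GFP-positive lung cells sorted from male mice on day 8 after lung injury with the drug bleomycin. CKO mice carried SftpcCreERT2, the Rosa26mTmG reporter and the floxed allele that the labels write as IPF/F, and Control mice carried SftpcCreERT2 and Rosa26mTmG alone. The series title names the prostaglandin I2 receptor, which is encoded by Ptgir. SftpcCreERT2 drives an inducible Cre from the gene of surfactant protein C, and recombination of the reporter labels AT2 cells and their progeny with GFP. Both libraries nevertheless held nuclei with markers of other cell types, given below where they bear on a result. The age and number of mice were not given in the sources used here. Each genotype gave 1 library, so genotype and library cannot be told apart, no p-value between genotypes can be had, and intervals below are exact 95% intervals of counting error alone.

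The CKO library held 10925 barcodes and 30818808 UMIs, and the Control library 13569 barcodes and 48378328 UMIs. The quality limits passed 65.7% of CKO and 47.7% of Control barcodes. Ptgir had 0 UMIs in the gated nuclei of both libraries, which, taken as fewer than 3 counts, allows a level of up to 0.369 UMIs per 1000000 nuclear-encoded UMIs (CPM) in CKO and 0.320 CPM in Control, so the targeted gene gave no check of the labels. The libraries shared 193 barcode sequences, carried by 2 CKO and 8 Control positive nuclei, and no barcode was positive in both. Summed levels were CPM over the nuclei of a set, and over 9752 genes the median log2 ratio of CKO over Control in the gate was 0.47, so a difference between libraries is read against that shift. The share of ribosomal-RNA-like transcripts differed between the libraries, with medians of 5.87% in CKO against 17.2% in Control positive nuclei.

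Cxcl1 encodes a secreted chemokine that attracts neutrophils through the receptor CXCR2, and Cxcl2 is its close relative and neighbour. Both are textbook targets of NF-kB, a transcription factor held in the cytoplasm by inhibitors such as the product of Nfkbia until a signal from cytokine or pattern receptors releases it. NF-kB then also transcribes its own brakes, Nfkbia and Tnfaip3 among them, whose short-lived transcripts mark recent activity. Injured AT2 cells are a known source of such chemokines besides making surfactant.

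The promoters of the 4 genes on which the results turn are shown because each has a window with a 9-base motif of the NF-kB type, searched as GGANTTTCC on both strands and printed in capitals. They run from 250 bases before to 50 bases after the gene start, are written in the direction of the gene, and come from RefSeq's GRCm38.p6 annotation. The Cxcl1 window is chr5:90890995-90891294 on the plus strand, the Cxcl2 window is chr5:90903649-90903948 on the plus strand, the Nfkbia window is chr12:55492598-55492897 on the minus strand and the Tnfaip3 window is chr10:19015361-19015660 on the minus strand. In the Tnfaip3 window the capitals also mark a motif of the AP-1 type, searched as TGANTCA on both strands, which comes first. A second Tnfaip3 window in the table, at another start of the gene, held neither motif and is not shown.
Cxcl1: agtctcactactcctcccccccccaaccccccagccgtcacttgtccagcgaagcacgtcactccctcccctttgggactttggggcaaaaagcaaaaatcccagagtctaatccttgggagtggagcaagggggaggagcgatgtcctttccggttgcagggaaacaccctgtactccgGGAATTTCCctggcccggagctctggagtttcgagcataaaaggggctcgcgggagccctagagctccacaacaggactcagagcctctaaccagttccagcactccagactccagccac
Cxcl2: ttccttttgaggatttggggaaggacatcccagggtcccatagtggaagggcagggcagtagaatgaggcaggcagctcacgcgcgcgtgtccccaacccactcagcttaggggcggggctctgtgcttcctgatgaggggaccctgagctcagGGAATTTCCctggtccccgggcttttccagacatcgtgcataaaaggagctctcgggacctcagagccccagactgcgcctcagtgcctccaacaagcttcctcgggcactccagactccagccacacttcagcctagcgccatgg
Nfkbia: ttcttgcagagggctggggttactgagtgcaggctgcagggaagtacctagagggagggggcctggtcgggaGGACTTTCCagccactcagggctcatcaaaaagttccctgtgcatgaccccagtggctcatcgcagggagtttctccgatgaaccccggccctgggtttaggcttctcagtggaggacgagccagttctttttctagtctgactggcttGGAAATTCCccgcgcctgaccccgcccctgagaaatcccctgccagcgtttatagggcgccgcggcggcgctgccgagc
Tnfaip3: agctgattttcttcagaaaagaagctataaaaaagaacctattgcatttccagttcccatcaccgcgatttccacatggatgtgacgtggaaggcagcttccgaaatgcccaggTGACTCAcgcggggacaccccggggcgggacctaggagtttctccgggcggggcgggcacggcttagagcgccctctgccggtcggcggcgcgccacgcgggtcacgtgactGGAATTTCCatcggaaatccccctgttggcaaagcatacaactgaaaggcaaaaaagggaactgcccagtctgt
Cxcl1 and Cxcl2 held the same letters, GGAATTTCC, at bases -70 to -62 and -96 to -88 from their starts. The same letters stood in the Cxcl3 window at -72 to -64 and in the Tnfaip3 window at -24 to -16. Nfkbia held GGACTTTCC at -178 to -170 and, printed as GGAAATTCC at -29 to -21, a match that reads GGAATTTCC on the opposite strand. Icam1 likewise held GGAATTTCC on the opposite strand at -153 to -145, and no match was found in the window of the chemokine gene Cxcl15. The NF-kB type motif was found in 412 of 32851 promoter windows of this length (1.254%) and the AP-1 type in 2565 (7.808%). A match describes the letters and does not show that a factor bound there.

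Cxcl1 transcripts were found in 2.10% of CKO gated nuclei (58 of 2768, 1.59 to 2.70), against 14.8% of Control gated nuclei (368 of 2484, 13.4 to 16.3). The summed level was 8.74 CPM in CKO (71 UMIs, 6.83 to 11.02) and 80.0 CPM in Control (751 UMIs, 74.4 to 86.0). On the log2 scale CKO minus Control was -3.20 (-3.57 to -2.84), or 9.16-fold lower in CKO (7.17 to 11.9). That gap ran against the general shift of the gate, which lay towards CKO. With each nucleus thinned to 1000 UMIs the positive share was 0.676% in CKO (0.406 to 1.06) and 4.74% in Control (3.94 to 5.65).

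Most positive nuclei stood at the edge of the rule. In CKO, 48 had 1 Cxcl1 UMI, 7 had 2 and 3 had 3. In Control, 201 had 1 UMI, 70 had 2, 47 had 3, 23 had 4, 13 had 5, 3 had 6, 7 had 7, 3 had 11 and 1 had 12. Positive nuclei averaged 1.22 Cxcl1 UMIs in CKO and 2.04 in Control. Within positive nuclei the Cxcl1 level differed little between the libraries, with a log2 of CKO over Control of -0.09 (-0.46 to 0.27), which the requirement of 1 UMI partly fixes. Across the gate the variance of the UMI count was 1.43 times its mean in CKO and 3.10 times in Control, where a count that differs only by sampling at equal depth gives a ratio near unity. The Control nuclei therefore held a tail of high counts, while CKO had no nucleus above 3 UMIs.

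**Figure D1:**
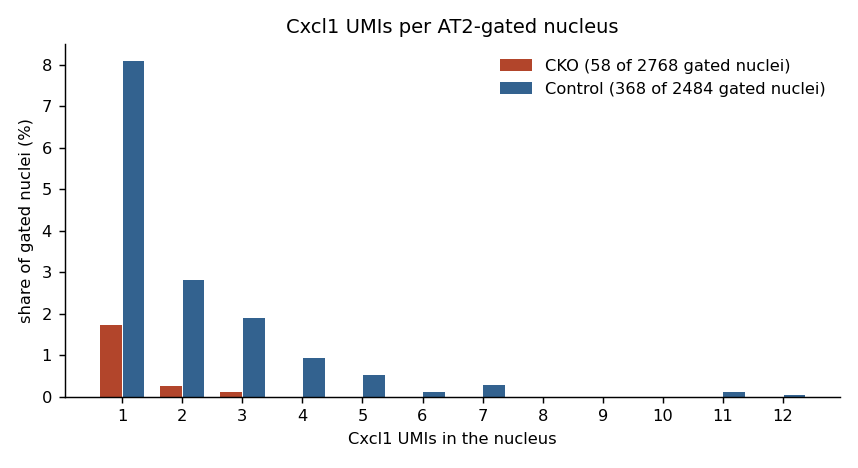
Share of gated nuclei (percent, vertical axis) by the number of Cxcl1 UMIs in the nucleus (horizontal axis, nuclei with none left out), with CKO bars left of Control bars. The 58 positive CKO nuclei end at 3 UMIs, and the 368 positive Control nuclei reach 12.

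Positive nuclei were more deeply sequenced than negative ones in both libraries. The median was 4047.5 UMIs in positive against 3106.5 in negative CKO nuclei, and 6223 against 3734 in Control. Median genes per nucleus were 1831.5 against 1468.5 in CKO and 1835 against 1309 in Control. The mitochondrial share differed little between them, with medians of 15.7% in positive and 16.7% in negative CKO nuclei and of 22.7% and 22.9% in Control. In CKO the share of positive nuclei was 0.774% at 1000 to 2000 UMIs, 1.95% up to 4000, 3.24% up to 8000 and 3.45% above. In Control the share was 4.95%, 10.7%, 15.1% and 36.6% over the same depths. CKO was the lower library at each depth. The summed level was 5.78, 8.59, 9.89 and 7.201 CPM in CKO, and 54.3, 69.8, 70.2 and 102 CPM in Control, where it was highest in the deepest nuclei.

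Marker classes here and below came from nuclei under the 1% surfactant limit. Each nucleus had fewer than 2 marker UMIs of each other type, club cells aside. Nuclei with at least 2 T or NK cell marker UMIs, a type that should lack Cxcl1, give one measure of the background from free RNA. Cxcl1 was seen in 1 of 328 such CKO nuclei (0.305%, 0.00772 to 1.69, at a median of 2103 UMIs), and in 2 of 79 such Control nuclei (2.53%, 0.308 to 8.85, at a median of 1623 UMIs). The gated nuclei had medians of 3124.5 UMIs in CKO and 3981.5 in Control. In CKO the thinned shares were 0.676% in AT2 (0.406 to 1.06) and 0.0789% in T and NK nuclei (up to 1.28). These intervals overlap, so the thinned CKO share was not separated from this background. Intervals of thinned shares treat an expected number as a count and are approximate. In Control the unthinned AT2 share lay above the interval of the T and NK nuclei, but the thinned share of 4.74% lay inside theirs, which was 0.457% (up to 5.44) over few nuclei. The levels were 8.74 CPM in AT2 and 1.27 CPM in T and NK nuclei of CKO (0.0321 to 7.07), and 80.0 and 16.2 CPM in Control (3.34 to 47.3).

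In Control, nuclei with at least 2 marker UMIs of B, endothelial or ciliated cells had higher Cxcl1 shares than the T and NK nuclei. In CKO Cxcl1 was found in 0 of 53 B cell-marker nuclei, which allows up to 5.66%, in 1 of 128 endothelial-marker nuclei (0.781%) and in 2 of 131 ciliated-marker nuclei (1.53%). In Control it was found in 4 of 27 B cell-marker nuclei (14.8%, 4.19 to 33.7, 69.9 CPM), in 9 of 57 endothelial-marker nuclei (15.8%, 7.48 to 27.9, 84.7 CPM) and in 9 of 71 ciliated-marker nuclei (12.7%, 5.96 to 22.7, 47.9 CPM). The share of the Control AT2 gate was not above these shares. Whether the Cxcl1 UMIs of these nuclei, or a part of those in the gate, were free RNA or the cells' own was not tested.

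Nuclei without Ptprc that fell below the 1% surfactant limit were positive in 82 of 2584 cases in CKO (3.17%, 2.53 to 3.92) and in 474 of 3677 in Control (12.9%, 11.8 to 14.0). Their levels were 16.4 CPM in CKO and 74.6 CPM in Control. Of nuclei with at least 2 macrophage marker UMIs, 30 of 370 were positive in CKO (8.11%), at 52.6 CPM, and 44 of 133 in Control (33.1%), at 159 CPM. In both libraries that level lay above the one of the AT2 gate. Nuclei with at least 2 mesenchymal marker UMIs were positive in 5 of 55 cases in CKO (9.09%, 3.02 to 19.95). Their CKO level was 57.02 CPM (30.36 to 97.51), also above the AT2 gate, and its interval holds the macrophage-marker level. Of 15 such Control nuclei 1 was positive (6.67%, 0.169 to 31.95), at 11.77 CPM (0.298 to 65.6), below the AT2 gate. For each 1000 Sftpb UMIs the AT2 gate had 1.44 Cxcl1 UMIs in CKO and 16.8 in Control, and the macrophage-marker nuclei had 43.2 and 86.1. Sftpb is a gate gene and the macrophage-marker nuclei came from below the gate, so this ratio differs between the classes in part by selection.

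**Figure D2:**
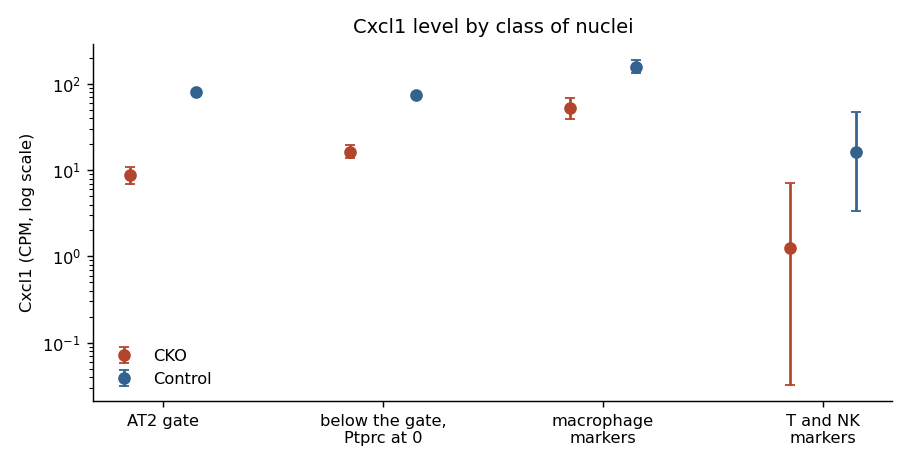
Summed Cxcl1 level (CPM, log scale, points with exact 95% intervals of counting error) in the AT2 gate, in nuclei below it and in nuclei with macrophage or with T and NK markers, CKO left of Control. In the AT2 gate the levels are 8.74 CPM in CKO and 80.0 CPM in Control, and macrophage-marker nuclei stand at 52.6 and 159 CPM.

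The positive nuclei carried the AT2 markers of the gate and also AT2 genes that the gate did not use. Sftpb, which encodes surfactant protein B, was detected in 58 of 58 CKO and 368 of 368 Control positive nuclei. Lamp3, a lamellar body membrane protein, was detected in 57 and 355, and Slc34a2, the phosphate transporter of AT2 cells, in 56 and 334. Outside the gate, the lysozyme gene Lyz2 was detected in 54 CKO and 358 Control positive nuclei and the cathepsin gene Ctsh in 57 and 293. These 2 had the highest Control ratios of that list. The 2 lowest, Etv5 and Rab27a, were detected in fewer positive nuclei, 39 and 252 for Etv5 and 20 and 124 for Rab27a. Negative nuclei had Lyz2 as well, in 90.7% of cases in CKO and 93.1% in Control. Macrophage markers had a summed log2 ratio, positive over negative, of -0.01 in CKO and 0.71 in Control. The part of macrophage RNA in the Lyz2 and Ctsh values was not tested. Sftpc, the classical AT2 marker, had only 22 and 137 positive nuclei with a UMI. Its level was 162 CPM in positive and 188 CPM in negative CKO nuclei, and 99.7 and 132 CPM in Control, so this nuclear RNA held little of it in either set.

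Surfactant-related genes were near the level of the negative nuclei in CKO and mostly slightly lower in Control. The 20 AT2 genes outside the gate had a median log2 ratio, positive over negative, of -0.03 over the 18 measured in CKO and of -0.12 over the 20 measured in Control. The same median over all measured genes was -0.01 in CKO and -0.06 in Control. Of those AT2 genes 8 of 18 had a ratio above 0 in CKO and 2 of 20 in Control, and the summed ratios were 0.02 (-0.04 to 0.08) and -0.05 (-0.07 to -0.03). The 8 gate genes summed to 0.00 (-0.05 to 0.05) in CKO and -0.08 (-0.10 to -0.06) in Control, where 5 had intervals below 0. A gene counts as measured when at least 10 UMIs were expected in the positive nuclei. In CKO Slc34a2 was at a log2 ratio of -0.07 (-0.21 to 0.06) and Etv5, a transcription factor of AT2 cells, at -0.31 (-0.60 to -0.03). In Control Slc34a2 was lower in positive nuclei, at 955 against 1422 CPM, a log2 ratio of -0.57 (-0.64 to -0.51). Etv5 was at -0.58 (-0.69 to -0.47) there, Rab27a, a regulator of secretory vesicles, at -0.61 (-0.82 to -0.39) and the lipid transporter gene Abca3 at -0.32 (-0.40 to -0.24). Sftpb differed less, with a log2 ratio of 0.04 (-0.04 to 0.12) in CKO and of -0.08 (-0.11 to -0.05) in Control, where it stood at 4570 against 4831 CPM.

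Cxcl2 was the clearest companion of Cxcl1 in the Control library and was not separated between the sets in CKO. In CKO it had 12 UMIs in positive and 304 in negative nuclei, or 57.3 against 38.4 CPM, a log2 ratio of 0.58 (-0.39 to 1.40). It was found in 9 of 58 positive CKO nuclei (15.5%, 7.35 to 27.4) and in 222 of 2710 negative ones (8.19%, 7.19 to 9.29). Most CKO nuclei with either chemokine thus had only that one. In Control Cxcl2 had 299 UMIs in positive and 162 in negative nuclei, or 143 against 22.2 CPM, a log2 ratio of 2.69 (2.41 to 2.98). It was detected in 109 of 368 positive Control nuclei (29.6%) and in 94 of 2116 negative ones (4.44%), with thinned shares of 8.97% (6.26 to 12.4) and 1.58% (1.10 to 2.21). Most positive nuclei thus lacked a Cxcl2 UMI in Control as well as in CKO.

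Between the libraries the direction of Cxcl2 depended on the set of nuclei, and the sets were chosen by Cxcl1. Over the whole gate Cxcl2 was lower in CKO, as Cxcl1 was. It had 316 of 8124587 nuclear-encoded UMIs there in CKO and 461 of 9381930 in Control, against 71 and 751 UMIs for Cxcl1. In positive nuclei Cxcl2 was lower in CKO than in Control, with a log2 of -1.32 (-2.29 to -0.50), but in negative nuclei it was higher in CKO, with 0.79 (0.51 to 1.07). The medians over all genes were 0.25 in positive and 0.47 in negative nuclei. In CKO 370 nuclei with at least 2 macrophage marker UMIs held 484 Cxcl2 UMIs, and 316 with at least 2 neutrophil marker UMIs held 426. In Control 133 and 4 such nuclei held 140 and 1, so these totals also differ by the number of nuclei. The part of those cells' RNA in the Cxcl2 of AT2-gated nuclei was not tested. The other CXCR2 ligands were near the limit of detection. Cxcl3 had 0 UMIs in positive and 11 in negative CKO nuclei, and 3 and 5 in Control. Cxcl5 had 1 and 3 in CKO and 1 and 1 in Control, and Ppbp had none in the positive nuclei of either library.

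Across all measured genes, few differed by the 1.5-fold used here to describe size. In CKO 146 of 3880 measured genes (3.76%) were at least 1.5-fold higher in positive nuclei and 312 (8.04%) at least 1.5-fold lower. In Control the numbers were 341 of 9690 (3.52%) and 865 (8.93%). Genes that encode NF-kB subunits and the inhibitors it induces were set against that background. In CKO 3 of the 7 measured were higher by that fold, which were Nfkbia, Rela and Birc3, and 1 was lower, which was Traf1, with a median log2 ratio of 0.29. Summed, they reached 1791 CPM in positive and 1260 CPM in negative CKO nuclei, a log2 ratio of 0.51 (0.35 to 0.66). In Control 6 of 16 measured were at least 1.5-fold higher, which were Tnfaip3, Nfkbia, Relb, Nfkbiz, Birc3 and Rel, and none was 1.5-fold lower. There 15 had a ratio above 0, the median was 0.52, and the summed level was 2724 against 1612 CPM, a log2 ratio of 0.76 (0.71 to 0.80).

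Nfkbia, which encodes a rapidly induced inhibitor of NF-kB, was higher in positive nuclei of both libraries. In CKO it had 64 UMIs in positive and 801 in negative nuclei, or 306 against 101 CPM, a log2 ratio of 1.60 (1.20 to 1.96). In Control it had 1459 and 2405 UMIs, or 699 against 330 CPM, a log2 ratio of 1.09 (0.99 to 1.18). It was detected in 51.7% of positive and 20.1% of negative CKO nuclei, and in 82.6% and 45.1% of those in Control. Thinned, those shares were 21.1% and 7.60% in CKO and 39.5% and 19.97% in Control. The level in positive CKO nuclei (306 CPM) was thus close to that in negative Control nuclei (330 CPM).

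Tnfaip3, whose product A20 removes ubiquitin chains needed for NF-kB signalling, showed a like ratio in both libraries. In CKO 16 UMIs in positive and 198 in negative nuclei gave 76.4 against 25.02 CPM and a log2 ratio of 1.61 (0.78 to 2.35), on too few counts to be among the measured genes. In Control 482 and 571 UMIs gave 231 against 78.3 CPM, a log2 ratio of 1.56 (1.38 to 1.74). Nfkbiz, a nuclear member of the inhibitor family, was at 0.27 (-0.09 to 0.62) in CKO and 0.73 (0.64 to 0.83) in Control. Cyld, another deubiquitinase of the pathway, was at -0.39 (-1.21 to 0.32) in CKO and -0.05 (-0.35 to 0.23) in Control. Tnip3, a partner of A20, had its 19 UMIs of the CKO positive nuclei in 6 nuclei, at 1.64 (0.88 to 2.32), and stood at 0.01 (-0.67 to 0.64) in Control.

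The CKO sum depended on which nuclei were kept. Without nuclei that also carried at least 2 UMIs of another cell type's markers, 26 positive CKO nuclei remained and the summed log2 ratio was 0.27 (-0.01 to 0.53), whose interval holds 0. Without the 5 positive nuclei highest in the list it was 0.35 (0.18 to 0.51). Markers of other types were present in positive and negative nuclei alike, and their part in the sum was not tested. Club cell markers were found in 75.9% of positive and 69.8% of negative CKO nuclei, at 908 against 1143 CPM, a log2 ratio of -0.33 (-0.55 to -0.13), and in 24.2% and 18.1% of those in Control, at 84.4 against 217.5 CPM, -1.37 (-1.60 to -1.14). Mesenchymal markers had 11 UMIs in positive and 179 in negative CKO nuclei, a log2 ratio of 1.22 (0.19 to 2.09), and 1 and 33 in Control. The 10 macrophage markers had 18 UMIs in positive and 683 in negative CKO nuclei, 86.0 against 86.3 CPM. In Control they had 115 and 246 UMIs, or 55.1 against 33.7 CPM, a log2 ratio of 0.71 (0.38 to 1.03), with Csf1r at 0.85 (0.34 to 1.34), Cx3cr1 at 1.25 (0.61 to 1.87) and Marco at 0 in the positive nuclei of both libraries. A macrophage marker was present in 25.9% of positive and 19.5% of negative CKO nuclei, and in 20.7% and 10.1% of those in Control. With the nuclei of other types left out, the Control sum of the NF-kB genes was 0.81.

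**Figure D3:**
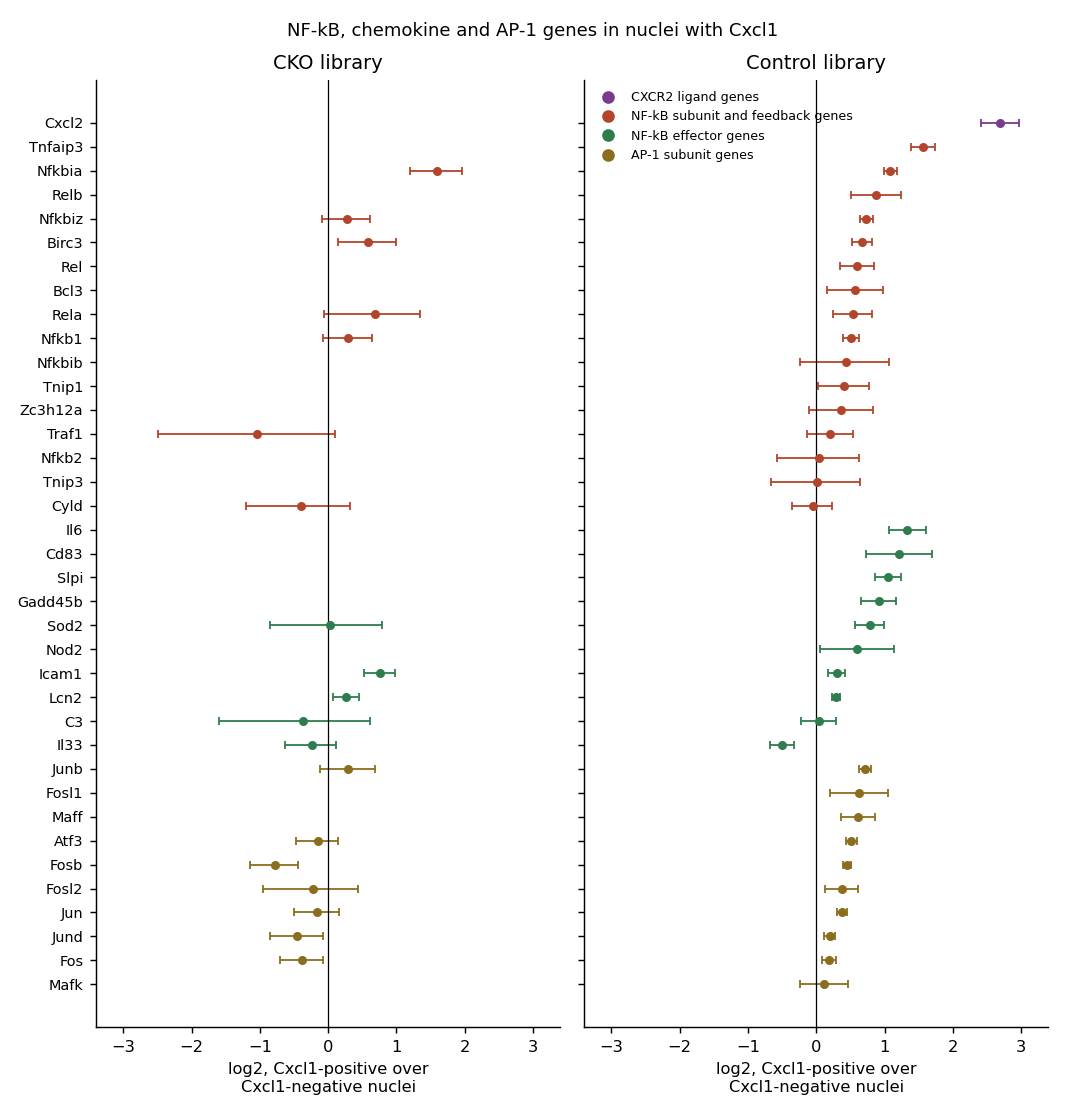
Log2 ratio of positive over negative nuclei (horizontal axis) for each measured gene of 4 lists (colours), points with exact 95% intervals of counting error, the CKO library in the left panel and the Control library in the right. Genes not measured in a library have no point there, and Nfkbia lies right of 0 in both panels, at 1.60 in CKO and 1.09 in Control, and all 10 AP-1 genes lie right of 0 in Control.

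Genes of effector proteins induced by NF-kB showed a mixed picture. In CKO 1 of 5 measured was at least 1.5-fold higher in positive nuclei and none lower, with a median log2 ratio of 0.03 and a summed ratio of 0.32 (0.19 to 0.44). In Control 6 of 10 were higher and none lower, with a median of 0.69 and a summed ratio of 0.34 (0.29 to 0.39). Il6, the gene of the cytokine interleukin 6, had 3 UMIs in positive and 82 in negative CKO nuclei, and 201 and 279 UMIs in Control, where 96.4 against 38.2 CPM gave a log2 ratio of 1.33 (1.06 to 1.60). Cd83, a surface glycoprotein gene, was at 1.21 (0.73 to 1.69) in Control. Sod2, the mitochondrial superoxide dismutase gene, was at 0.03 (-0.86 to 0.79) in CKO and 0.79 (0.57 to 1.00) in Control. Lcn2, which encodes an iron-binding antimicrobial protein, was high in all sets, at 0.26 (0.07 to 0.45) in CKO and 0.29 (0.23 to 0.35) in Control. The alarmin gene Il33 was at -0.24 (-0.63 to 0.12) in CKO, and lower in Control positive nuclei, with 149 against 211 CPM and a log2 ratio of -0.50 (-0.68 to -0.33).

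Icam1, the adhesion molecule that leukocytes bind, was the effector gene of CKO positive nuclei that passed the fold. Its level was 807 CPM in positive and 477 CPM in negative CKO nuclei, a log2 ratio of 0.76 (0.53 to 0.98), and 353 against 287 CPM in Control, 0.30 (0.18 to 0.42). Icam1 was also higher in CKO than in Control, with a log2 of 1.19 in positive and 0.73 in negative nuclei. Nfkbia went the other way, at -1.19 and -1.70, and Tnfaip3 stood at -1.60 and -1.65. These genes of 1 pathway thus did not share a direction between the libraries.

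The receptors and adaptors that carry signals to NF-kB did not follow their targets. In CKO none of 6 measured passed the fold in either direction, with a median of -0.01 and a summed ratio of 0.12 (-0.10 to 0.33). Of 18 measured in Control, none was 1.5-fold higher and 1 was lower, with a median of -0.13 and a summed ratio of -0.05 (-0.15 to 0.04). The tumour necrosis factor receptor gene Tnfrsf1a had the highest ratio of the list in Control, at 0.47 (0.05 to 0.88), and the ubiquitin ligase gene Traf6 the lowest, at -0.63 (-1.23 to -0.07). Of 10 genes that control messenger stability, Zfp36l1, which promotes decay of transcripts with AU-rich elements, was at 0.01 (-0.35 to 0.35) in CKO and 0.86 (0.76 to 0.97) in Control. Zfp36, of the same family, was at 0.13 (-0.28 to 0.51) in CKO and 0.47 (0.38 to 0.56) in Control.

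Genes of AP-1 subunits pointed in opposite ways in the 2 libraries. In CKO 1 of 7 measured was above 0 and 1 passed the fold downwards, with a median log2 ratio of -0.22 and a summed ratio of -0.30 (-0.43 to -0.17). In Control all 10 measured had a ratio above 0, 3 of them past 1.5-fold, with a median of 0.41 and a summed ratio of 0.41 (0.38 to 0.44). Junb was at 0.30 (-0.12 to 0.69) in CKO and 0.71 (0.62 to 0.80) in Control. Fosb had 325 CPM in positive and 559 CPM in negative CKO nuclei, -0.78 (-1.15 to -0.44), and 1641 against 1201 CPM in Control, 0.45 (0.39 to 0.51). Atf3, a stress-induced member, was at -0.15 (-0.47 to 0.14) in CKO and 0.51 (0.43 to 0.60) in Control. Jun, the subunit named in the series title, was at -0.16 (-0.49 to 0.16) in CKO and 0.37 (0.30 to 0.44) in Control. The difference between the libraries was not tested.

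Other immediate early genes, which respond to many stimuli within minutes, differed in a like way. In CKO 1 of 12 measured was at least 1.5-fold higher in positive nuclei and 4 were lower, with a median of -0.23. In Control 5 of 21 were higher and 1 was lower, with a median of 0.35. Egr1 had 100 CPM in positive and 94.4 CPM in negative CKO nuclei, 0.09 (-0.61 to 0.71), and 913 against 531 CPM in Control, 0.78 (0.70 to 0.86). The log2 of CKO over Control for Egr1 was -3.19 (-3.88 to -2.57) in positive and -2.49 (-2.61 to -2.38) in negative nuclei. Ier3, an early gene linked to survival, had 38.2 against 50.2 CPM in CKO, -0.39 (-1.61 to 0.60), and 174 against 75.8 CPM in Control, 1.20 (1.01 to 1.40).

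Irf1, a transcription factor gene that interferon and NF-kB both induce, was at 86.0 against 48.9 CPM in CKO, 0.81 (0.04 to 1.49), and at 214 against 92.7 CPM in Control, 1.21 (1.03 to 1.38). The other interferon genes had no common direction in Control. The whole list had a median of 0.58 over 5 measured genes in CKO, with 2 higher and 1 lower, and of -0.09 over 13 in Control, with 1 higher and 1 lower. The summed ratios were 0.50 (0.28 to 0.72) in CKO and 0.15 (0.07 to 0.23) in Control, where sum and median thus differ in sign. The antiviral gene Rsad2 was at -1.81 (-3.74 to -0.36) in Control on 4 UMIs in positive nuclei. Genes of MHC class II, which present antigen and which AT2 cells express, had a median of 0.07 over 3 measured in CKO and of 0.33 over 7 in Control, with none past 1.5-fold in either library.

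Genes of the states into which injured AT2 cells pass had small ratios as lists. The transitional genes had a median of 0.15 over 12 measured in CKO, with none higher and 1 lower, and of 0.03 over 15 in Control, with 2 higher and 1 lower. Their summed ratios were 0.05 (-0.10 to 0.19) in CKO and 0.17 (0.12 to 0.23) in Control. Sfn, the stratifin gene of that state, was at 0.23 (-0.73 to 1.05) in CKO and at 1.07 (0.82 to 1.33) in Control, with 97.8 against 46.5 CPM. Krt8, its keratin marker, was at 0.27 (-0.09 to 0.60) in CKO and 0.25 (0.12 to 0.38) in Control. AT1 genes had medians of -0.14 over 13 measured in CKO and -0.15 over 19 in Control, with none and 1 higher, and summed ratios of -0.17 (-0.26 to -0.07) and 0.03 (-0.01 to 0.08). Of the p53 target genes, none of 9 measured in CKO was higher and 1 was lower, with a median of 0.04, and 3 of 21 in Control were higher and none lower, with a median of 0.18. Summed, they were at 0.10 (-0.05 to 0.24) in CKO and 0.16 (0.10 to 0.21) in Control. Cdkn1a, the cell cycle inhibitor among them, was at 0.04 (-0.39 to 0.45) in CKO and 0.26 (0.12 to 0.40) in Control, and Gdf15, a stress-induced cytokine gene, at 0.89 (0.60 to 1.17) in Control. Trp53 itself had 4 UMIs in positive CKO and 28 in positive Control nuclei.

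The remaining lists had medians between -0.16 and 0.11, where all measured genes had -0.01 in CKO and -0.06 in Control. Their sums were above 0 in Control. Hypoxia and glycolysis genes had medians of -0.01 over 6 measured in CKO and 0.00 over 16 in Control, and sums of 0.02 (-0.17 to 0.21) and 0.12 (0.05 to 0.20). Integrated stress and unfolded protein genes had medians of 0.03 over 8 in CKO and -0.06 over 13 in Control, and sums of 0.03 (-0.12 to 0.18) and 0.27 (0.22 to 0.32). Sqstm1, an autophagy receptor gene among them, was at 0.06 (-0.32 to 0.42) in CKO and 0.48 (0.40 to 0.56) in Control. Prostaglandin genes had medians of -0.16 over 4 measured in CKO and 0.11 over 7 in Control, and sums of -0.10 (-0.34 to 0.12) and 0.16 (0.10 to 0.23). Ptgs2, the inducible cyclooxygenase gene, had 71.7 against 108 CPM in CKO, -0.59 (-1.43 to 0.14), and 323 against 251 CPM in Control, 0.36 (0.23 to 0.49). Cytosolic ribosomal protein genes had medians of -0.12 in CKO, where 22 of 75 were above 0, and of 0.09 in Control, where 68 of 76 were. Over all measured genes 1886 of 3880 in CKO and 4018 of 9690 in Control were above 0. The ribosomal sums were -0.14 (-0.19 to -0.09) in CKO and 0.11 (0.09 to 0.13) in Control.

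The genes with the largest ratios outside these lists came in part from single nuclei. Among CKO nuclei Fhit was at 2.11 with 69.8% of its UMIs in positive nuclei from 1 nucleus, Gpc6 at 1.40 (0.97 to 1.80) with UMIs in 11 nuclei, and Slc26a4, an anion exchanger gene, at 1.04 (0.80 to 1.28) in 34. Acoxl was at 1.07 (0.77 to 1.36) in CKO and -0.02 (-0.11 to 0.06) in Control. Itgav, an integrin subunit gene, was at 0.92 (0.61 to 1.22) in CKO and 0.73 (0.62 to 0.83) in Control, but without nuclei that carried markers of other types the CKO value was -0.036 (-0.80 to 0.63). In Control Ereg, which encodes the EGF receptor ligand epiregulin, had 61 UMIs in 12 positive nuclei and 30 UMIs in the negative ones, a log2 ratio of 2.83 (2.18 to 3.51), and 1 nucleus gave 36.1% of the 61. Ovol1, an epithelial transcription factor gene, was at 1.30 (0.99 to 1.60), with UMIs in 85 positive nuclei. The chromatin remodelling gene Smarcd3 was at 2.99 and the secreted protein gene Retnla at 1.30, but 1 nucleus held 76.5% and 51.2% of their UMIs in positive nuclei. Lsmem1 had 4 UMIs in positive and 222 in negative CKO nuclei, and in Control 596 against 293 CPM, 1.02 (0.92 to 1.13), with UMIs in 242 positive nuclei.

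On the low side, Areg, the gene of the EGF receptor ligand amphiregulin, was at -1.13 (-2.05 to -0.35) in CKO, against 0.40 (0.23 to 0.56) in Control. Scaper at -0.89, Arrdc3 at -0.80 and Klhl29 at -0.67 were also among the CKO genes lowest in positive nuclei. Scgb1a1, the secretory protein gene of club cells, had 869 CPM in positive and 1066 CPM in negative CKO nuclei, -0.29 (-0.51 to -0.08), with 47.3% of the positive UMIs in 1 nucleus, and 80.1 against 208 CPM in Control, -1.37 (-1.61 to -1.14). Under a 20% mitochondrial share the CKO value of Scgb1a1 was 0.45 (0.20 to 0.70). Fkbp5, a glucocorticoid-induced gene, was at 0.35 (-0.21 to 0.86) in CKO and -1.34 (-2.09 to -0.67) in Control. The neural adhesion gene Chl1 was at -3.09 (-4.99 to -1.69) in Control on 4 UMIs in positive nuclei, and the growth factor gene Nrg1 at -1.07 (-1.44 to -0.71). The other Control genes on this side, Agbl4, Tipin, Cblc, Exoc3, Prpf38a, Fam222b, Smc3 and Adgra3, lay between -2.03 and -1.17.

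Levels of some genes followed the Cxcl1 count and those of others did not. In CKO, nuclei with 0, 1 and at least 2 Cxcl1 UMIs (2710, 48 and 10) had Cxcl2 at 38.4, 48.0 and 94.0 CPM and Nfkbia at 101, 318 and 258 CPM. The last 2 Cxcl2 values rest on 8 and 4 UMIs, and their intervals (20.7 to 94.5 and 25.6 to 241) hold the first value. In Control, over nuclei with 0, 1, 2 and at least 3 Cxcl1 UMIs (2116, 201, 70 and 97), Cxcl2 was at 22.2, 76.6, 134 and 239 CPM. Irf1 was at 92.7, 181, 209 and 263 CPM and Egr1 at 531, 788, 975 and 1043 CPM, so all 3 were higher at each step, although the intervals overlapped between 1 and 2 and between 2 and at least 3 UMIs for Irf1 and between the last 2 steps for Egr1. Nfkbia stood at 330, 596, 827 and 762 CPM and Tnfaip3 at 78.3, 167, 305 and 273 CPM. Both were highest at 2 UMIs, with intervals that overlapped those at 3 or more. Il6 was highest in nuclei with 1 Cxcl1 UMI, at 38.2, 122, 101 and 59.4 CPM, although the intervals at 1 and 2 UMIs overlapped. Slc34a2 was lower in all positive steps, at 1422, 1068, 827 and 879 CPM, while Sftpb moved little, at 4831, 4623, 4549 and 4511 CPM. The median depth went up over the same steps, at 3734, 4946, 6220.5 and 8689 UMIs, and its part in these values was not tested.

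**Figure D4:**
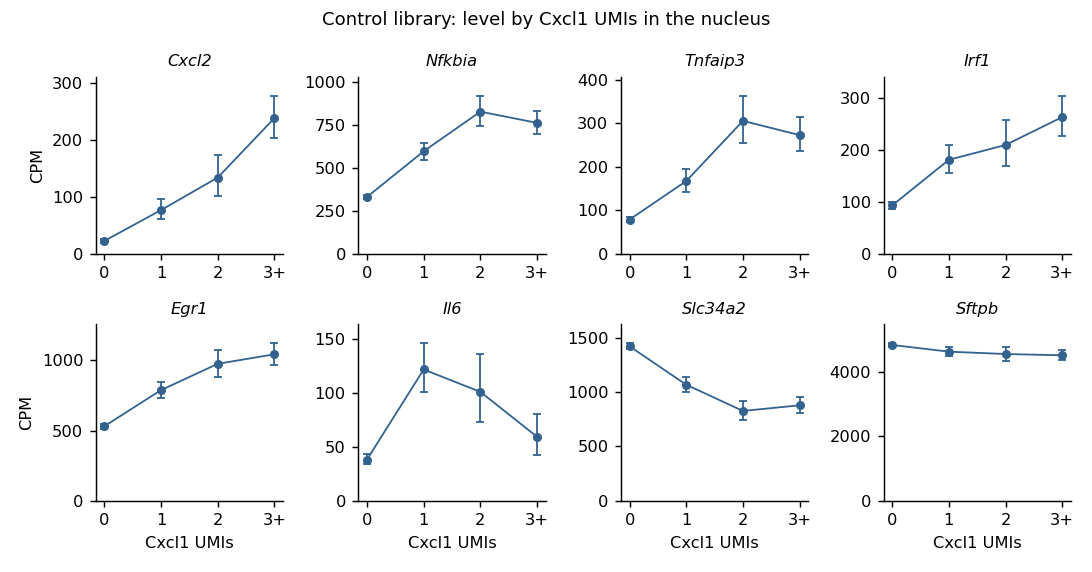
Summed level of 8 genes (CPM, linear axes from 0, points with exact 95% intervals of counting error) by the number of Cxcl1 UMIs in the nucleus, in the Control library. Cxcl2 is at 22.2 CPM in nuclei with 0 Cxcl1 UMIs and at 239 CPM in those with 3 or more, while Sftpb stays between 4511 and 4831 CPM.

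The motif of the NF-kB type was counted in the promoters of genes grouped by their ratio, as a description. In CKO it was present in 3 of 117 genes at least 1.5-fold higher in positive nuclei (2.564%), which were Icam1, Nfkbia and Slc26a4. That compares with 6 of 251 genes 1.5-fold lower (2.39%) and 46 of all 3066 measured genes with a promoter in the table (1.5%). In Control it was present in 9 of 253 higher genes (3.557%), which were Alkbh5, Anxa1, Cxcl2, Ier3, Il6, Krt23, Llph, Nfkbia and Tnfaip3, against 6 of 661 lower genes (0.908%) and 105 of 7625 measured (1.377%). The AP-1 type motif was at 4.274% of the higher and 4.403% of all measured genes in CKO, and at 4.743% and 4.538% in Control.

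Chromatin was read as transposition counts in the authors' peaks of each library, scaled per 1000000 peak counts (peak CPM). Positive nuclei had median totals of 2046.5 peak counts in CKO and 1405.5 in Control, against 2442.5 and 1584 in negative nuclei. The peak over the Cxcl1 start had 8 counts in positive and 279 in negative CKO nuclei, 41.1 against 26.7 peak CPM, with a log2 ratio of 0.63 (-0.60 to 1.62). In Control it had 77 and 330 counts, 58.4 against 46.8 peak CPM, 0.32 (-0.06 to 0.68). Both intervals hold 0, so no difference at the Cxcl1 promoter was detectable at this depth with all positive nuclei. Over peaks within 5000 bases of the gene, the CKO ratio was 0.61 (-0.62 to 1.60) with all 58 positive nuclei and 2.46 (1.00 to 3.603) with the 10 that had at least 2 Cxcl1 UMIs. The 8 start-peak counts came from 5.17% of the 58 positive CKO nuclei, and 5.20% of negative CKO nuclei had a count there. The 2.46 thus rests on few nuclei, and its interval leaves out that counts of the same nucleus are not independent. Cxcl2 starts 12654 bases after Cxcl1, and the peak at its start had 2 and 141 counts in CKO, -0.39 (-3.45 to 1.49). In Control that peak had 44 and 143 counts, 33.4 against 20.3 peak CPM, 0.72 (0.19 to 1.21).

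Further out, 2 CKO peaks were centred at -47088 and -32580 bases from the Cxcl1 start. They had 4 counts each in positive nuclei and 113 and 42 in negative ones, 20.6 against 10.8 and 4.01 peak CPM. The log2 ratio was 0.93 (-0.97 to 2.33) at the first, whose interval holds 0, and 2.36 (0.42 to 3.82) at the second. At each peak the 4 counts came from 3.45% of the positive CKO nuclei, so both ratios rest on few nuclei. The intervals leave out that counts of the same nucleus are not independent. The Control peaks at those places, centred at -47120 and -32605, had no count in the positive nuclei, against 70 and 57 counts (9.94 and 8.09 peak CPM) in the negative ones. A count of 0 there gives an exact upper bound of 2.80 peak CPM. The difference between the libraries at these places was not tested. The peak centred 40052.5 bases after the start in CKO had 4 and 313 counts, -0.54 (-2.42 to 0.83), and its Control counterpart, centred at 40034.5, had 41 and 299, -0.45 (-0.96 to 0.03).

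**Figure D5:**
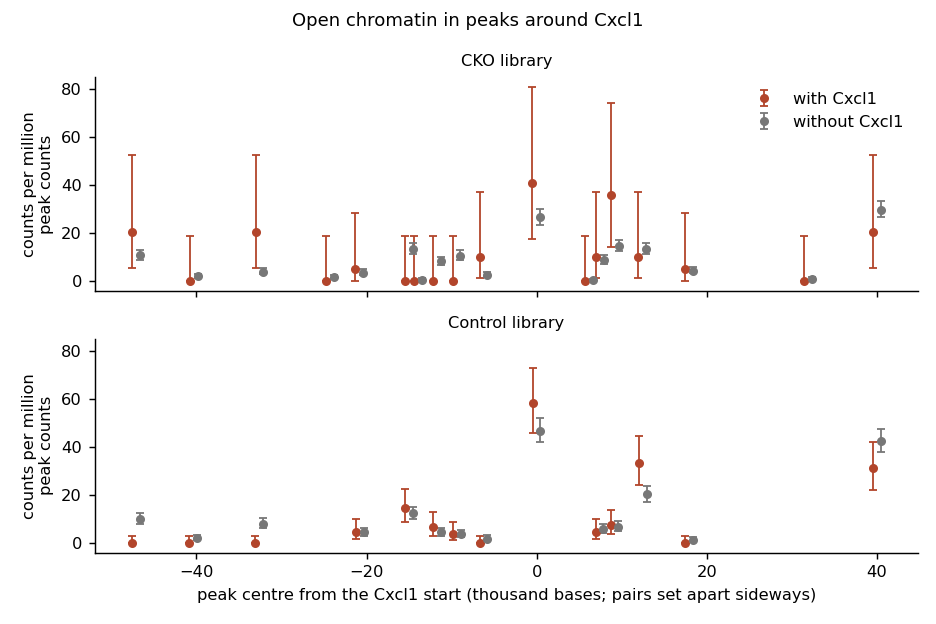
Peak CPM (vertical axis, points with exact 95% intervals of counting error) in peaks around Cxcl1, by distance of the peak centre from its start in kilobases (horizontal axis), for positive and negative nuclei, CKO in the upper and Control in the lower panel. The peak at the Cxcl1 start reads 58.4 peak CPM in positive and 46.8 peak CPM in negative Control nuclei, with intervals that overlap.

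Over all promoters, meaning peaks within 1000 bases of a gene start, 228 of 2832 measured in CKO (8.05%) and 505 of 12970 in Control (3.89%) were at least 1.5-fold higher in positive nuclei. The promoters of NF-kB subunit and feedback genes did not follow their RNA. Summed, their log2 ratio was 0.07 (-0.17 to 0.31) in CKO, where none of 7 passed the fold, and 0.04 (-0.05 to 0.13) in Control, where 1 of 13 was higher. AP-1 promoters summed to 0.06 (-0.19 to 0.29) in CKO and -0.12 (-0.22 to -0.02) in Control, while their RNA was higher in Control positive nuclei. The Nfkbia promoter was at 0.05 (-0.25 to 0.34) and the Egr1 promoter at -0.03 (-0.26 to 0.21) in Control. Promoters of named and NF-kB genes lay on both sides of 0 there. The promoters of Nfkbie, another inhibitor gene, at 0.61 (0.17 to 1.02), Ier3 at 0.56 (0.13 to 0.97), Birc3 and Icam1 at 0.43, Ovol1 at 0.68 (0.29 to 1.05) and Ereg at 1.32 (0.33 to 2.25) were among those higher in Control positive nuclei. Those of Atf3 at -0.52 (-0.83 to -0.21), Sftpb at -0.45 (-0.83 to -0.08), Bhlhe40 at -0.26 (-0.51 to -0.02) and Cxcl3 at -1.09 (-2.35 to -0.05) were lower. The Lsmem1 promoter was lower too, with 5 and 102 counts and a log2 ratio of -1.93 (-3.59 to -0.66), while its RNA was higher. Macrophage marker promoters had 2 and 288 counts in CKO, and 44 and 111 in Control, 1.08 (0.54 to 1.60), of which Cd68 had 39 and 105. The Control sum thus came mostly from the Cd68 promoter. Cd68 RNA was not higher there, with 10 UMIs in positive and 40 in negative Control nuclei, 4.79 against 5.48 CPM.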

How the data were processed

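Nuclear RNA and chromatin of 2 libraries (4 samples in the labels) were analysed from the deposited matrices, which hold raw counts, UMI counts for genes and transposition counts for peaks, made with Cell Ranger ARC 2.0.1, per the file headers. Seurat 4.1.0 and Signac 1.6.0 are named in the submitters' processing notes without a step. How barcodes were called is not given in the sources used here. Builds GRCm39 and GRCm38 are both named there, and the gene start of Cxcl1 matches GRCm38. No doublet caller was run.

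Gated nuclei were split by Cxcl1, UMIs were summed per set, and genes were compared as shares of nuclear-encoded UMIs with Cxcl1 left out of the total. Intervals were exact Poisson or binomial (Clopper-Pearson). A gene was measured with at least 10 UMIs expected in positive nuclei from the whole gate. Thinning to 1000 UMIs was computed as an expected value, and the intervals of thinned shares used that expected number in place of a count. The procedure was checked on simulated data with scipy 1.17.1, numpy 2.4.6, matplotlib 3.10.9 and pandas 2.3.3 under Python 3.11.15. The members and the lists were chosen with earlier results of these data known. Genes named are a set of always-named genes, the 2 highest and lowest of each list in Control, and the 12 (Control) or 6 (CKO) highest and lowest with at least 20 UMIs expected. Other filters, gates and scalings were tried, 2 of them chosen after seeing the data. Some genes that the naming rule takes are not reported here.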

Additional observations from a re-analysis of the deposited data

Results flagged for a closer look

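The ratio of positive over negative nuclei pointed in opposite directions in the 2 libraries for 4 of the named genes, each with an interval clear of 0. This is not a count over all measured genes, and the difference itself was not tested. Fos was at -0.38 (-0.71 to -0.07) in CKO and 0.18 (0.08 to 0.29) in Control, and Fosb at -0.78 (-1.15 to -0.44) and 0.45 (0.39 to 0.51). Areg was at -1.13 (-2.05 to -0.35) in CKO and 0.40 (0.23 to 0.56) in Control. Klhl29 was at -0.67 (-0.95 to -0.39) and 0.23 (0.14 to 0.32), but its Control value turned negative under other filters.

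Cxcl1 also appeared outside the gate. In CKO nuclei with macrophage markers its share after thinning was 3.37% (1.78 to 5.76), above the interval of the gated CKO nuclei.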

How the results depend on the processing

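The Cxcl1 level stayed lower in CKO under every alternative run, at a log2 of -2.72 with a 2% gate and -3.66 with median-of-ratios scaling. The CKO positive share was 0.361% with at least 2 Cxcl1 UMIs and 0.676% with thinning. The Control share was 6.72% with at least 2 Cxcl1 UMIs, 17.3% from 2000 UMIs, 4.74% with thinning, 12.2% with a 2% gate and 9.74% with mitochondrial shares under 10%. The summed ratio of the NF-kB genes in CKO was 0.27 without nuclei of other types and 0.35 without the 5 highest nuclei. In Control it was 0.67 at 1000 to 100000 peak counts, 0.93 with at least 2 Cxcl1 UMIs, 0.91 with a 2% gate, 0.66 without Nfkbia, 0.81 with median of ratios, 1.14 and 0.89 with mitochondrial shares under 10% and 20%, and 0.81 without other types. The Cxcl1 region ratio was 2.46 (1.00 to 3.603) in CKO with at least 2 Cxcl1 UMIs, on few of 10 positive nuclei, and -0.39 in Control with a 2% gate.

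Counts of genes past the fold moved with several choices. In CKO higher genes numbered 90 with at least 2 Cxcl1 UMIs, 39 and 407 at floors of 20 and 5 expected UMIs, 49 with a 2% gate, 60 under 10% mitochondrial share, 251 with depth-weighted negatives and 69 without other types. Lower CKO genes numbered 122, 105, 757, 105 and 113 under the first 5 of these and 179 without other types. In Control higher genes numbered 171 and 601 at floors of 20 and 5 and 211 under 10% mitochondrial share. Lower ones were 436 at a floor of 20, 412 with a 2% gate and 252 under 10% mitochondrial share.

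Some signs turned. Under 10% mitochondrial share, which left 13 CKO and 19 Control positive nuclei, Lmo7 (-0.64), Lsmem1 (-0.47), Slc26a4 (-0.60) and Sftpb (0.10) turned in Control, as did Sftpa1 (0.35) and Scgb1a1 (0.10) in CKO, the last also under 20% (0.45). With a 2% gate Cxcl15 (-0.054) and Klhl29 (-0.17) turned in Control and Fhit (-0.19) and Lcn2 (-0.25) in CKO. At 1000 to 100000 peak counts Cxcl15 (-0.0033) and Klhl29 (-0.21) turned in Control. Retnla was at -0.67 with at least 2 Cxcl1 UMIs and Rsad2 at 0.20 with a 0.5% gate, both in Control, and Itgav at -0.036 in CKO without other types. The causes were not tested.

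No paired analysis was possible because each genotype has 1 library. With 58 CKO positive nuclei, 48 of them at 1 UMI, counting error is large for CKO values, and chromatin counts per peak in CKO are few.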
